A study of Homo sapiens with 18 samples.

Results

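The data described here are RNA-Seq values of 2 SP5 mutant clones, dZF1 and dZF2, and of their wild-type (WT) reference after 48 h of Wnt3a. All cells of these libraries were H1 (WA01), an established human embryonic stem cell (hESC) line grown in E8 medium, and all 48 h libraries came from cells given 1 nM Wnt3a. The reference, WT Rep. 2, carried both intact SP5 alleles, and each clone was grown from 1 cell after CRISPR-Cas9 deletion of the zinc-finger coding part of both SP5 alleles. By immunoblot, the study saw a truncated SP5 protein in the clones, at a level below that of the WT protein. The 0 h libraries of the same series came from cells without Wnt3a. There was 1 library for each series and time, so 3 of the 16 RNA-Seq libraries carry the comparison at 48 h, and no group has a replicate at that time. The spread that can be seen is the difference between the clones and, for the change from 0 h, that between WT Rep. 2 and the other WT series, WT Rep. 1.

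The members are all genes of the deposited mutant table. At 48 h the clones deviated together from WT for 401 of them and in opposite ways for 85, and at the remaining 11 a clone had exactly the WT value. The table holds genes that the study picked for a response to Wnt3a in WT cells, so it is not a sample of the genome. Each value is a gene's RPKM (mapped reads per transcript length and sequencing depth) divided by that gene's highest RPKM among the 4 times of WT Rep. 2. A value of 1.00 is therefore the WT maximum, and values of different genes are not comparable as levels. Where values follow without a name, they are in the order WT Rep. 2, dZF1, dZF2. Ratios were taken as log2 of a clone's value plus 0.05 over the WT value plus 0.05, and a gene was called 2-fold higher or lower when both clones had a log2 ratio of at least 1 in size and of the same sign. With 2 clones against 1 WT library no permutation test can go below p = 0.33, so no test was run, and all ratios are descriptions of these libraries. In bulk RNA, fewer cells of a type and less RNA per cell cannot be told apart.

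Wnt3a is a secreted ligand that binds Frizzled receptors and LRP co-receptors and stabilises beta-catenin, which then acts with TCF/LEF factors at target genes. In hESCs this drives the cells out of pluripotency, through a state like the primitive streak (mesendoderm), towards mesoderm and definitive endoderm (DE). SP5 is itself a WNT target and a member of the SP/KLF family, whose C2H2 zinc fingers read GC-rich boxes in DNA. The part of SP5 that the clones lack lies on chromosome 2. In the GRCh37 genome the 3 zinc fingers are encoded by 243 bases at chr2:171573609-171573851 on the plus strand, in exon 2 of 2 and within codons 298 to 378 of 398. The stretch is shown because it is the sequence the mutagenesis was designed to remove, with the cysteine and histidine codons that hold the zinc in capitals; the ends of the deletions in the clones were not analysed here.
SP5 zinc-finger coding stretch: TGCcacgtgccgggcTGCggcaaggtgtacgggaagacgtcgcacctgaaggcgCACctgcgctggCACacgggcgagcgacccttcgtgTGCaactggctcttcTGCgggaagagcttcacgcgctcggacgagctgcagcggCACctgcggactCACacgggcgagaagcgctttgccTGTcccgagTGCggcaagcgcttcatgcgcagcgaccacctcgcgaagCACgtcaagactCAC

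SP5 RNA itself was higher in the clones than in WT Rep. 2 at 48 h. The value was 1.00 (WT Rep. 2), 2.54 (dZF1) and 2.61 (dZF2), which gives log2 ratios of 1.30 and 1.34. Both clones stood above the WT library and differed little from each other. Without Wnt3a all 3 libraries were at or near 0, with 0.02 in WT Rep. 2 against 0.01 in dZF1 and 0.00 in dZF2. The value counts RNA from the whole gene, so it does not show whether the zinc-finger part was present. At 24 h SP5 was at 0.09 (WT Rep. 2), 0.90 (dZF1) and 0.75 (dZF2).

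Of all genes in the table, 31 were at least 2-fold higher in both clones (6.24%) and 16 were at least 2-fold lower (3.22%). Without a threshold, both clones lay above WT for 222 genes (44.7%) and below it for 179 (36.0%). The median log2 ratio over all genes was 0.09 in dZF1 and 0.06 in dZF2. Among the 31 higher genes, 29 had their WT maximum at 48 h, against 313 of all genes in the table. Among the 16 lower genes that number was 5. None of these 47 genes was listed at 0 in any of the 3 libraries at 48 h. Just inside the threshold, ID3 had a weaker ratio of 1.07, and just outside it lay FOXA2 at 0.98, FN1 at 0.97 and MLLT6 at 0.96. On the lower side PCDH18 and PRDM14 lay at -1.0, and NPTX2 was just outside at -0.98.

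**Figure D1:**
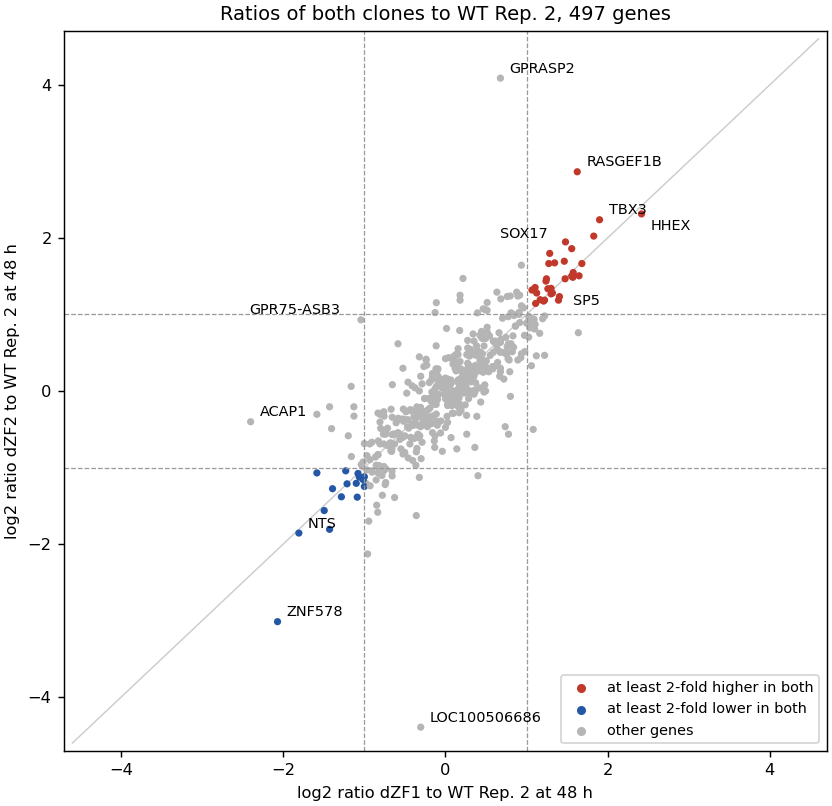
Each point is 1 gene of the mutant table, with its log2 ratio to WT Rep. 2 at 48 h in dZF1 on the x axis and in dZF2 on the y axis; dashed lines mark 2-fold and the diagonal marks equal ratios. The 31 genes at least 2-fold higher in both clones (red) and the 16 at least 2-fold lower (blue) mostly lie near the diagonal, while GPRASP2, LOC100506686 and ACAP1 lie far from it. The call itself needs both clones past 2-fold in the same direction.

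By the clone nearer to WT, the gene with the largest ratio was HHEX, a homeobox factor of anterior endoderm and later of liver and thyroid. Its value was 1.00 in WT Rep. 2 against 5.56 in dZF1 and 5.17 in dZF2, a log2 ratio of 2.42 and 2.31. All 3 libraries were at 0.00 before Wnt3a. Of the other DE regulators, SOX17, an HMG-box factor that defines endoderm, was at 1.00 (WT Rep. 2), 2.88 (dZF1) and 4.0 (dZF2). GATA6, a zinc-finger factor of endoderm, was at 1.00, 2.87 and 2.85 in the same order. PRDM1, a transcriptional repressor also called BLIMP1, was at 1.00, 3.04 and 3.76. For all 4 genes the clone nearer to WT was more than 2.5 times the WT library at 48 h. With the 0 h ratio subtracted, the mean log2 ratio went from 1.71 to 0.71 for PRDM1 and from 1.47 to 0.90 for GATA6. It stayed at 2.37 for HHEX and 1.71 for SOX17, whose 0 h values were all under 0.05.

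The list of DE regulators and surface markers had 12 genes, of which 11 had values. Of these, 4 were at least 2-fold higher in both clones, 0 were at least 2-fold lower, 9 were higher in both and 1 was lower in both. Over all genes in the table, 6.24% were at least 2-fold higher, 3.22% at least 2-fold lower, 44.7% higher in both and 36.0% lower in both. The counts of every list below stand beside the same shares. The median of the mean log2 ratio was 1.01, beside 0.05 over all genes in the table. With the 0 h ratio subtracted, the list median was 0.71. The lowest member was TFPI, an inhibitor of blood clotting, at 1.00 in WT Rep. 2 against 0.55 in dZF1 and 0.60 in dZF2. Between these ends lay FOXA2, a forkhead factor of endoderm, at 1.00, 2.40 and 2.02, and CXCR4, a chemokine receptor used to sort DE cells, at 1.00, 2.14 and 1.98. CER1, a secreted inhibitor of NODAL and BMP ligands, was at 1.00, 1.44 and 1.33.

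In the list of mesendoderm and primitive streak transcription factors, 10 of 14 genes had values. Of these, 3 were at least 2-fold higher in both clones and 0 were at least 2-fold lower. The 3 higher genes were TBX3, EOMES and SP5. TBX3, a T-box repressor, was at 1.00 (WT Rep. 2), 3.87 (dZF1) and 4.90 (dZF2), with log2 ratios of 1.90 and 2.24. EOMES, a T-box activator needed for DE, was at 1.00, 2.49 and 3.28. In all, 9 of the 10 were higher in both clones, and the median of the mean log2 ratio was 0.86. It was 0.70 with the 0 h ratio subtracted. T (Brachyury), the T-box factor of mesoderm, was at 1.00, 1.96 and 3.23, so dZF1 just missed 2-fold on this scale. Before Wnt3a the mean log2 ratio of T was already 1.68, beside 1.29 at 48 h. GSC, a homeobox factor of the organizer, was at 1.00, 2.09 and 1.66, and MIXL1, a homeobox factor of mesendoderm, at 1.00, 1.22 and 1.5. MYCT1, named as a MYC target, was the lowest member of the list and the only 1 lower in both clones, at 1.00, 0.57 and 0.82.

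The 24 h values of the genes in this list differed between the WT series. WT Rep. 1, the other WT series, is scaled to its own maximum. There the 10 genes of the list stood at 24 h at a median of 137% of their own 48 h value. Of them, 5 were at or above it. In WT Rep. 2 the median was 10.0% and 1 gene was at or above its 48 h value. In dZF1 the median was 36.6% and in dZF2 60.7%, between the values of the WT series. For T the value at 24 h was 0.34 and at 48 h 1.00 in WT Rep. 2, but 1.00 and 0.47 in WT Rep. 1. Ratios at 48 h thus compare the clones with a WT library in which 9 of these 10 genes were at their maximum, at the last time measured. The part of this difference in timing in the ratios was not tested.

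**Figure D2:**
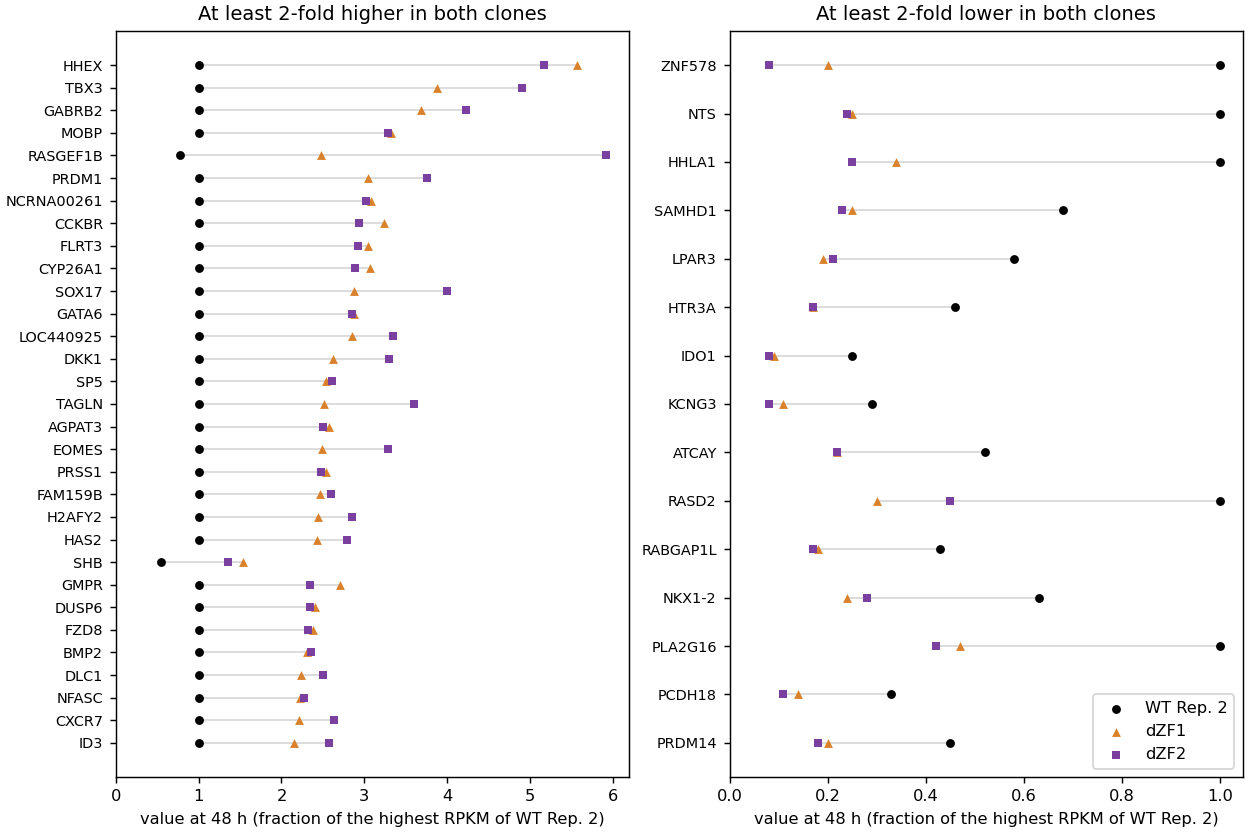
Values at 48 h of Wnt3a, as a fraction of the highest RPKM of WT Rep. 2, for the 31 genes at least 2-fold higher in both clones (left) and 15 of the 16 at least 2-fold lower (right), ordered by the weaker ratio; circles are WT Rep. 2, triangles dZF1 and squares dZF2, with 1 library each. HHEX reaches 5.56 and 5.17 against 1.00, ZNF578 is at 0.20 and 0.08 against 1.00, and for most genes the clones lie close together. Genes where the clones disagree are left out by the call.

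Genes of the signalling pathways that pattern the streak gave smaller list medians. In the WNT list, 2 of 18 genes were at least 2-fold higher, 0 were at least 2-fold lower, 10 were higher in both clones and the median of the mean log2 ratio was 0.32. Over all genes 6.24% were at least 2-fold higher and 44.7% higher in both. Counts this small, here and in the other pathway lists, cannot be told from these shares. DKK1, a secreted inhibitor that blocks the LRP co-receptors, was at 1.00 in WT Rep. 2 against 2.62 in dZF1 and 3.30 in dZF2, and at 0.00 in all 3 libraries without Wnt3a. FZD8, a Frizzled receptor, was at 1.00, 2.38 and 2.32. DKK4, a relative of DKK1, had the lowest mean ratio of the list, at 1.00, 0.63 and 0.35. The related inhibitors DKK1 and DKK4 thus lay at opposite ends of the same list in both clones. AXIN2, a negative feedback gene of the pathway, was at 0.76 (WT Rep. 2), 0.71 (dZF1) and 0.94 (dZF2).

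In the BMP list 9 of 11 genes had values, 2 were at least 2-fold higher and 0 lower, with a median of 0.58. They were the ligand BMP2, at 1.00 in WT Rep. 2 against 2.31 in dZF1 and 2.35 in dZF2, and ID3, an inhibitor of basic helix-loop-helix factors, at 1.00, 2.15 and 2.57. SMAD6, an inhibitory SMAD, was lowest at 1.00, 0.59 and 0.70. In the FGF and ERK list 2 of 11 genes were at least 2-fold higher, 0 lower, and the median was 0.36. FLRT3, a transmembrane protein that interacts with FGF receptors, was at 1.00, 3.04 and 2.92, and DUSP6, a phosphatase that switches off ERK, at 1.00, 2.40 and 2.34. FGFR2, an FGF receptor, was lowest at 0.52, 0.27 and 0.27.

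None of the 9 genes of the NODAL list was 2-fold from WT in both clones, and their median was 0.37. The highest was FST (follistatin), which binds activin, at 0.72 (WT Rep. 2), 1.29 (dZF1) and 1.77 (dZF2). The lowest was LEFTY2, a secreted NODAL inhibitor, at 1.00, 0.61 and 0.56. NODAL, the ligand, was at 1.00, 1.43 and 1.64. The clones were therefore above WT for the ligand and below it for LEFTY2, by less than 2-fold in each case. LEFTY2 does not stand for the inhibitors of the list, since both clones lay above WT for CER1. Across the list, WT lay below both clones at 6 of the 9 members and above both at 2.

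Other lists held single genes past 2-fold. CYP26A1, which degrades retinoic acid, was at 1.00 in WT Rep. 2 against 3.07 in dZF1 and 2.89 in dZF2, while CRABP2, a retinoic acid binding protein of the same list of 5, was at 1.00, 0.58 and 0.47. The median of that list was -0.39. HAS2, which makes hyaluronan, was at 1.00, 2.43 and 2.79 and was the only 1 of 24 matrix and integrin genes past 2-fold in both clones, where HAPLN3, a link protein of hyaluronan, was lowest at 0.31, 0.16 and 0.09 and the median was 0.14. TAGLN, an actin-binding protein of smooth muscle, was at 1.00, 2.51 and 3.60, and of the 21 adhesion and cytoskeleton genes 16 were higher in both clones, with a median of 0.35. CAV1 (caveolin) was the lowest of them at 1.00, 0.61 and 0.56. None of the 15 axon guidance genes passed, with SEMA6D, a semaphorin, highest at 1.00, 1.90 and 2.43, EFNA5, an ephrin, lowest at 1.00, 0.83 and 0.76, and a median of 0.35.

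Among the 24 transporters and channels the median was -0.28, with 1 gene at least 2-fold higher and 2 at least 2-fold lower. GABRB2, a subunit of the GABA-A receptor, was at 1.00 (WT Rep. 2), 3.68 (dZF1) and 4.22 (dZF2), and already at 0.55, 1.98 and 1.86 at 24 h. KCNG3, a modulatory potassium channel subunit and 1 of the 2 lower genes, was at 0.29, 0.11 and 0.08. Outside the lists, the largest higher genes were RASGEF1B, MOBP, NCRNA00261, CCKBR and LOC440925. RASGEF1B, an exchange factor for small GTPases, was at 0.77 in WT Rep. 2 against 2.48 in dZF1 and 5.92 in dZF2, and was the only 1 of the 47 genes whose clones were at least 2-fold apart. MOBP, known from myelin, was at 1.00, 3.32 and 3.28, and CCKBR, the receptor for gastrin and cholecystokinin, at 1.00, 3.24 and 2.93. NCRNA00261 was at 1.00, 3.08 and 3.02, and LOC440925 at 1.00, 2.85 and 3.35. The other 9 higher genes outside the lists had values from 1.54 to 2.71 in dZF1 and from 1.36 to 2.85 in dZF2. Among them SHB, an adaptor protein with an SH2 domain, was at 0.55, 1.54 and 1.36 after 48 h but at 1.00, 0.42 and 0.57 before Wnt3a, so the clones lay below WT at 0 h and above it at 48 h.

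**Figure D3:**
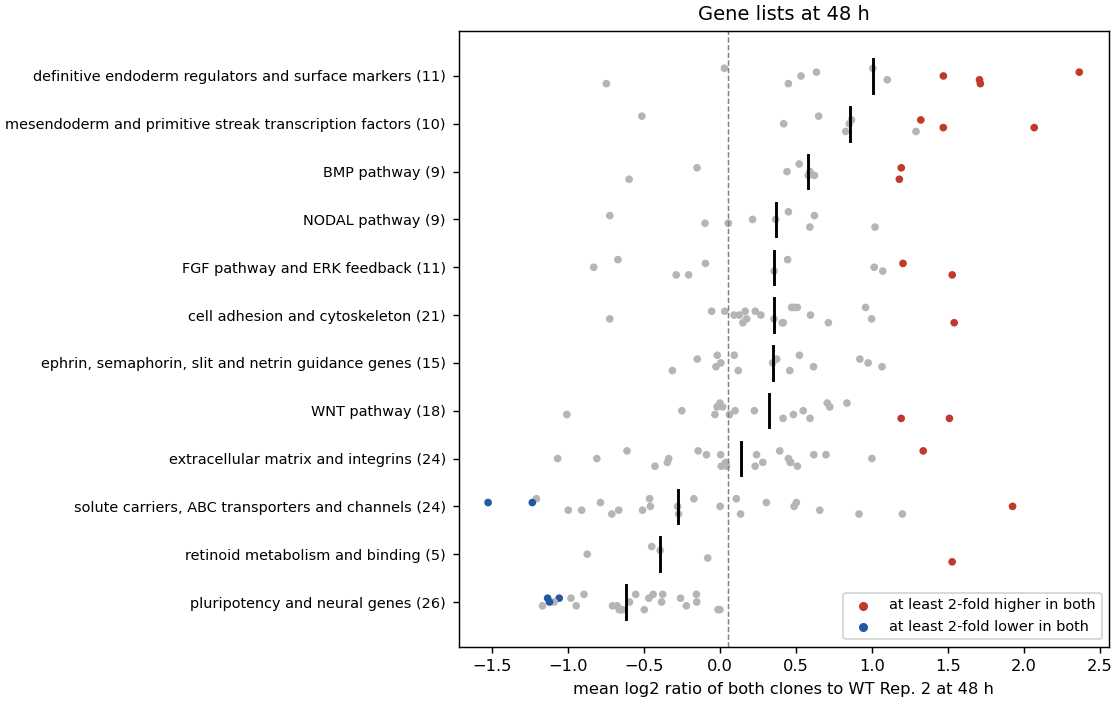
Log2 ratio to WT Rep. 2 after 48 h, averaged over the clones, for the genes of 12 lists, with the number of genes with values in parentheses; black bars are list medians, and the dashed line is the median of all genes in the table, at 0.05. Medians run from -0.62 for the pluripotency and neural genes to 1.01 for the DE regulators.

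The 26 pluripotency and neural genes were lower as a group, and 0 of them were higher in both clones. In 23 both clones were below WT Rep. 2, 3 were at least 2-fold lower, and the median of the mean log2 ratio was -0.62, beside 0.05 over all genes. PRDM14, a zinc-finger factor of pluripotent cells, was at 0.45 (WT Rep. 2), 0.20 (dZF1) and 0.18 (dZF2). NKX1-2, a homeobox factor, was at 0.63, 0.24 and 0.28, and PCDH18, a protocadherin, at 0.33, 0.14 and 0.11. SYP, a synaptic vesicle protein, had the lowest mean ratio of the list at 0.40, 0.20 and 0.11. FZD7, a Frizzled receptor abundant in hESCs, had the highest at 0.61, 0.64 and 0.58, close to no difference. At 0 h the median of the same list was -0.16. The list was chosen with earlier results of these data known. It leaves out NEFL, a neural marker that was higher in both clones, with a mean log2 ratio of 0.39.

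The remaining lower genes had no common list. ZNF578, a zinc-finger gene, had the lowest ratio, with 1.00 in WT Rep. 2 against 0.20 in dZF1 and 0.08 in dZF2. NTS, the precursor of the peptide neurotensin, was at 1.00, 0.25 and 0.24, and HHLA1 was at 1.00, 0.34 and 0.25. SAMHD1, which hydrolyses deoxynucleotides, was at 0.68, 0.25 and 0.23, and LPAR3, a receptor for lysophosphatidic acid, at 0.58, 0.19 and 0.21. The others were HTR3A, a serotonin-gated channel, IDO1, which degrades tryptophan, and ATCAY, RASD2, RABGAP1L and PLA2G16. Their mean log2 ratios lay between -1.33 for RASD2 and -1.08 for ATCAY.

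Cell states could be described only in part, because the table holds few of the markers fixed for them. All markers with values except NEFL belong to the lists above, and SOX2 is in both the pluripotency and the neural set. The marker medians thus repeat values already given and are no further check. Of 8 DE markers 7 had values, and all 7 were higher in both clones, 4 of them at least 2-fold, with a median of 1.47. Of 6 pluripotency markers 4 had values, and SOX2, DNMT3B, PRDM14 and PODXL were all lower in both clones, with a median of -0.69. The median of these 4 was already -0.53 at 0 h. Of 7 neural markers 5 had values, 4 lower and 1 higher in both clones, with a median of -0.66. Of 7 mesoderm markers T alone had a value, and of 7 trophoblast and amnion markers 0 had. POU5F1 and NANOG, which define pluripotent cells, have no value in this table.

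Few of the genes called at 48 h were also called at 0 h. Before Wnt3a 25 genes were at least 2-fold apart in the same direction in both clones (5.03%), 11 higher (2.21%) and 14 lower (2.82%). Of the 47 genes called at 48 h, 3 were among them in the same direction. DUSP6 was at 0.43 (WT Rep. 2), 1.65 (dZF1) and 1.84 (dZF2) at 0 h, so its ratio was larger before Wnt3a than after 48 h. NKX1-2 was at 0.95, 0.38 and 0.34, and ZNF578 at 0.43, 0.10 and 0.08. For 10 of the 31 higher genes all 3 values at 0 h were under 0.05, so no ratio can be read there; they include HHEX, SOX17, EOMES, DKK1 and SP5.

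Below the 2-fold threshold, both clones lay above WT at 0 h for 33.0% of all genes and below it for 42.5%. Of the 31 higher genes, 7 were higher and 9 were lower in both clones at 0 h, and 3 had a log2 ratio of at least 0.5 in both, which 8.85% of all genes had. Of the 16 lower genes, 14 were already lower in both clones at 0 h, 0 were higher, and 10 had a log2 ratio of -0.5 or less in both, which 13.5% of all genes had. SAMHD1 was at 0.91 in WT Rep. 2 against 0.56 in dZF1 and 0.61 in dZF2 at 0 h, and PRDM14 at 0.82, 0.44 and 0.55. Of the 11 genes apart and higher at 0 h, 5 were also higher in both clones at 48 h and 2 were lower. Of the 14 apart and lower at 0 h, 7 were also lower in both at 48 h and 5 were higher. Over all genes, 44.7% were higher and 36.0% lower in both clones at 48 h. With so few genes, nothing is read from these counts.

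**Figure D4:**
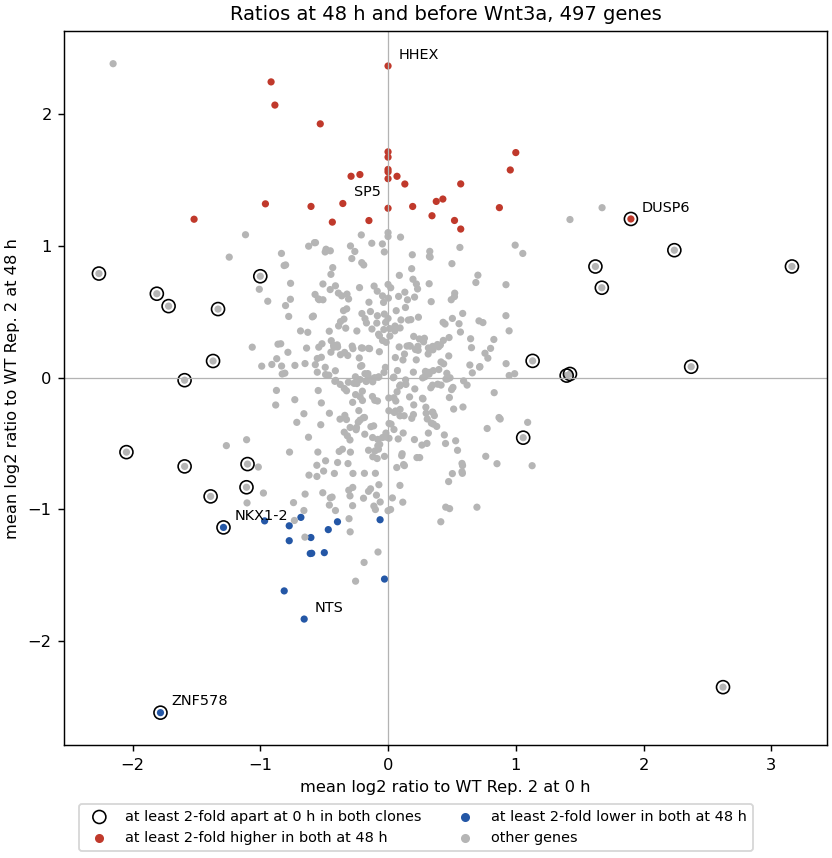
Log2 ratio to WT Rep. 2, averaged over the clones, at 0 h (x axis) and at 48 h of Wnt3a (y axis) for all genes in the table, colored by the call at 48 h; rings mark the 25 genes at least 2-fold apart at 0 h in both clones. Among the called genes only DUSP6, NKX1-2 and ZNF578 carry a ring on the same side, and the genes listed near 0 without Wnt3a lie on the vertical line.

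At 24 h 52 genes were at least 2-fold higher in both clones (10.5%), more than at 48 h, and 11 of the 31 higher genes were among them. At 12 h 17 genes were (3.42%), of which 7 were among the 31. Of the 16 lower genes, 4 were at least 2-fold lower at 12 h (3.82% of all genes) and 5 at 24 h (2.82%). SOX17 was at 0.00 in all 3 libraries at 24 h, and HHEX at 0.00 (WT Rep. 2), 0.25 (dZF1) and 0.11 (dZF2). EOMES was further along at 24 h, at 0.05, 0.94 and 1.90. All times rest on the same 2 clones and the same WT series, with 1 library each. The earlier times are therefore no independent check of the 48 h values.

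WT Rep. 1 gave a second view of what Wnt3a did over 48 h, on its own scale, as the log2 change from 0 h. WT Rep. 1 and WT Rep. 2 differed at least 2-fold in this change for 148 genes (29.8%), beside 116 genes for dZF1 against WT Rep. 2 (23.3%) and 129 for dZF2 against WT Rep. 2 (26.0%). The WT series thus differed from each other for at least as many genes as either clone differed from WT Rep. 2. The median size of the difference in log2 change was 0.67 between the WT series and 0.28 between the clones. These comparisons share WT Rep. 2, and the genes of the table were picked for a response in WT cells.

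For 20 of the 31 higher genes both clones had a larger change than both WT series, and so did 15.9% of all genes. The 31 were chosen by 48 h values that enter this change, so nothing is read from the difference between these shares. HHEX had a log2 change of 4.39 in both WT series, 6.81 in dZF1 and 6.71 in dZF2. A WT change cannot exceed 4.39 on this scale, because WT values end at 1.00, so for genes at 0.00 in WT at 0 h the clones could go beyond both WT series by any excess at 48 h. The 11 higher genes with at least 0.1 at 0 h in all 4 series, where the pseudocount weighs less, were chosen by the same 48 h values. No share over all genes with this limit was taken, so nothing is read from their count. Of these 11, 5 had both clones above both WT series. GABRB2 was 1 of them, at 2.58 in WT Rep. 1, 1.01 in WT Rep. 2 against 3.79 in dZF1 and 3.15 in dZF2. ID3 was not, at 1.39, 0.69, 1.48 and 1.25, and DUSP6 was at -0.34, 1.13, 0.53 and 0.34.

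In 5 of the 16 lower genes, chosen in the same way, both clones had a lower change than both WT series, beside 16.3% of all genes, and in 6 WT Rep. 1 had a more negative change than both clones. No share over all genes was taken for these 6. IDO1 had a log2 change of -2.71 (WT Rep. 1), -1.36 (WT Rep. 2), -2.15 (dZF1) and -1.94 (dZF2). NTS, at 1.54, 1.39, 0.10 and 0.33, was among the 5. NTS was higher at 48 h than at 0 h in both WT series and stayed near its 0 h value in the clones.

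**Figure D5:**
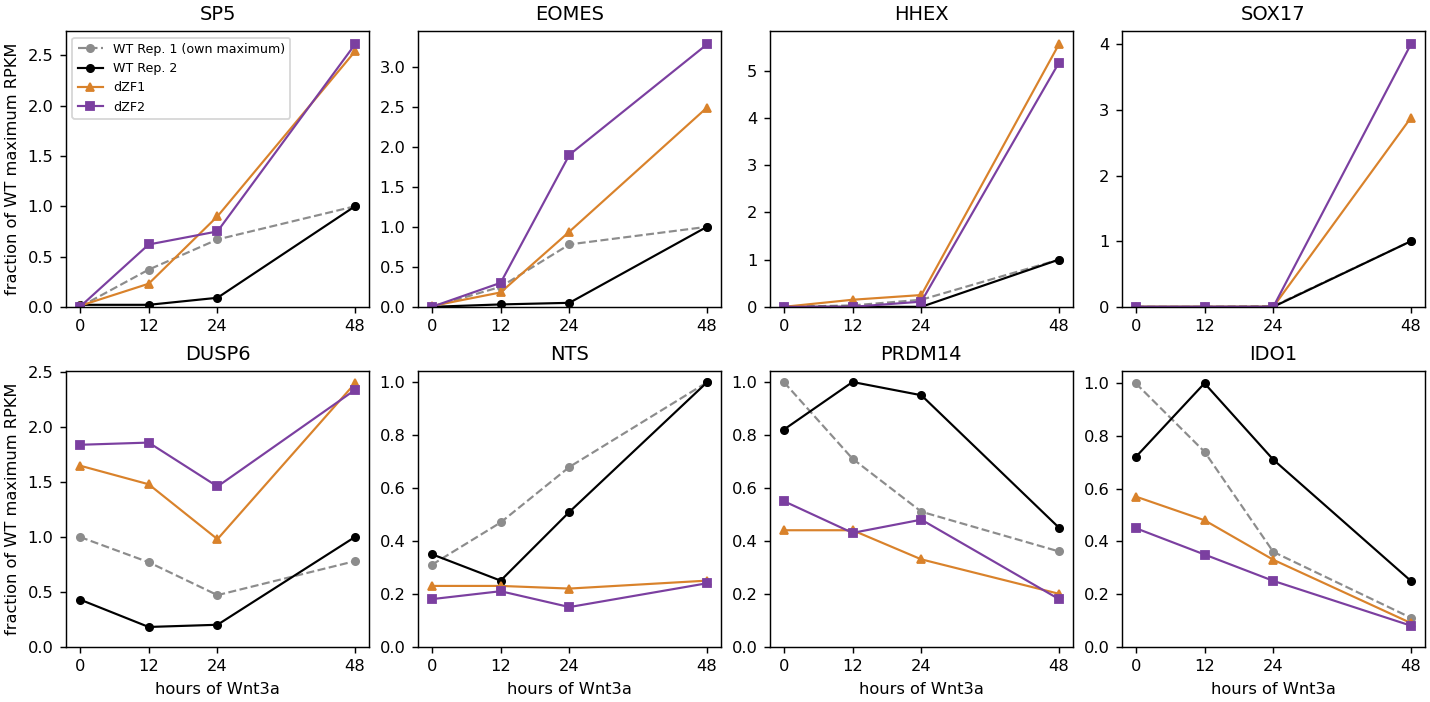
Time courses over 0, 12, 24 and 48 h of Wnt3a for 8 genes in WT Rep. 2, dZF1 and dZF2, as a fraction of the highest RPKM of WT Rep. 2, and in WT Rep. 1 as a fraction of its own maximum (dashed); each point is 1 library. SP5 reaches 2.54 and 2.61 in the clones against 1.00, NTS stays at 0.25 and 0.24, and PRDM14 and IDO1 are lower at 48 h than at 0 h in all 4 series.

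The clones differed from each other at least 2-fold for 21 genes at 48 h (4.23%), and the median size of the log2 difference between them was 0.21 over all genes and 0.14 over the 47 called genes. The call needs both clones past 2-fold in the same direction at 48 h, which leaves out genes where the clones disagree. Nothing is therefore read from the smaller value of the called genes. The largest differences were at LOC100506686, at 0.80 in dZF1 and 0.00 in dZF2, and GPRASP2, at 0.03 in dZF1 and 0.80 in dZF2. WT Rep. 2 was at 1.00 and 0.00 for these genes, and a value of 0 in such a table can be a failed estimate. ACAP1, a GTPase-activating protein, was at 0.69 (WT Rep. 2), 0.09 (dZF1) and 0.51 (dZF2). GPR75-ASB3, a readthrough transcript that shares exons with its neighbours, was at 1.00, 0.46 and 1.95, and BTBD17 at 0.12, 0.31 and 0.07. Among the genes of WT Rep. 1 all 5 have a maximum RPKM between 4.6 and 14.7, beside a median of 23.1 RPKM for all genes in the table.

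SP5 binding near these genes was read from both deposited lists of ChIP-Seq peaks. Their samples are labelled as 0 h and 24 h of Wnt3a in H1 cells, but the headers of both lists name 1 and the same ChIP library, from Wnt3a-treated cells that the headers call h9. According to the headers the lists differ in the control, which was buffer-treated or Wnt3a-treated. The lists are therefore called by their control here, and no comparison of 0 h with 24 h was made. A peak of either list lay within 10000 bases of a start site for 47 of the 487 genes with a position (9.65%). Of the 30 higher genes with a position 3 had such a peak (10.0%), and of the 16 lower genes 2 had (12.5%). Without the threshold it was 24 of 221 genes higher in both clones (10.9%) and 17 of 173 lower in both (9.83%). All of these shares lay near that of all genes in the table, which were themselves picked for a response to Wnt3a. The paper reported SP5 peaks more often at such genes than at human genes as a whole, a comparison not made here. The paper also counted T, GATA6 and TBX3 among genes with an SP5 peak. In these lists their nearest peaks lay 84636, 178549 and 779996 bases from a start site, outside the window. HHEX, SOX17, EOMES and NTS had no peak of these lists in this window. For SOX17 and FOXA2 the paper describes nearby peaks of lower confidence that it left out of its own list.

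The genes with peaks were SP5, CCKBR and NFASC on the higher side and SAMHD1 and PRDM14 on the lower side. The SP5 peak, at chr2:171570777-171572606, held 93 tags with a false discovery rate of 0.00% in both lists, and its summit lay 241 bases from the start site. PRDM14 had 47 tags, with rates of 7.14% against the Wnt3a-treated and 5.0% against the buffer-treated control, but its peak lay 9811 bases from the start site. SAMHD1 had 19 tags at chr20:35575331-35575719, with a false discovery rate of 9.64% against the Wnt3a-treated and 30.97% against the buffer-treated control. CCKBR had 26 tags, with rates of 36.92% and 66.24%, and NFASC, a cell adhesion protein of axons, had 51 tags and a rate of 18.75% in the buffer-control list alone. SP5 was the only called gene with a peak of a false discovery rate of 0.00%.

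The 121 bases around 4 of these summits are given in GRCh37 on the plus strand, since they show the DNA under the called peaks nearest to these genes; apart from that of SP5, these peaks had false discovery rates of 9.64% or more. Capitals mark the hexamers GGGCGG (the GC box) and GGGAGG, searched on both strands. Of 539 summits of the Wnt3a-control list, 161 windows of this length held GGGCGG (29.9%) and 200 held GGGAGG (37.1%). In the windows shown, GGGAGG was found in 3 and GGGCGG in 0. The window of SP5 is chr2:171571546-171571666, that of SAMHD1 chr20:35575464-35575584, that of NFASC chr1:204896905-204897025 and that of CCKBR chr11:6280405-6280525.
SP5 summit: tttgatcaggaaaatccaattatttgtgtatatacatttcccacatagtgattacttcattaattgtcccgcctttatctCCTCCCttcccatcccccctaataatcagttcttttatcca
SAMHD1 summit: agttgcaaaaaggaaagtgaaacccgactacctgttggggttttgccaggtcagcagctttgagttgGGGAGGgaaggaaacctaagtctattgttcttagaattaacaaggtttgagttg
NFASC summit: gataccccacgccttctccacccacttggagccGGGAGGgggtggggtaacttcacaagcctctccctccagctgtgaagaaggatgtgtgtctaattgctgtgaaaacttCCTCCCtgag
CCKBR summit: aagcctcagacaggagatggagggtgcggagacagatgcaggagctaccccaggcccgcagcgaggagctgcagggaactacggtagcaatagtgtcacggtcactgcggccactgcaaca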

How the data were processed

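The RNA-Seq libraries of WT Rep. 1, WT Rep. 2, dZF1 and dZF2 cover 0, 12, 24 and 48 h with Wnt3a (1 nM), 1 library each. Groups were taken from the sample titles, and 0 per-sample columns went unmapped. The authors aligned reads to hg19 with TopHat (the submitters' processing notes name Bowtie 0.12.7 and SAMtools 0.1.12a) and calculated RPKM with Cuffdiff. In the files deposited by the authors, each gene of WT Rep. 2 is a fraction of its highest RPKM, and each clone value is a ratio to the same RPKM, with 2 decimals. WT Rep. 1 was deposited as RPKM and as a fraction of its own maximum. No read counts are used, so the depth behind each value is unknown and no interval is given. At 2 decimals, low values are coarse, and the pseudocount of 0.05 shrinks their ratios. For each ChIP-Seq peak the authors deposited the count of tags, a score made from the MACS 1.4.2 p-value, a fold enrichment and a false discovery rate in percent. A further deposited table repeats values used here and was not used.

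Ratios, calls and list medians were computed in Python 3.11.15 with numpy 2.4.6 and pandas 2.3.3, and figures drawn with matplotlib 3.10.9. The call rule was tested on simulated data. Genes were placed with GENCODE release 44 on GRCh37 for 487 symbols, 42 of them through older symbols in RefSeq. Alternatives were pseudocounts of 0.01 and 0.2, a minimum of 0.1 at 48 h, subtraction of the 0 h ratio or of the median, each clone alone, and the change from 0 h against that in WT Rep. 1. Added after seeing the data were the limit to genes with at least 0.1 at 0 h and the pseudocounts for the 0 h count. Members and gene lists were chosen with earlier results of these data known. The rule for named genes took the 15 largest and 15 smallest weaker ratios among called genes, list members past 2-fold, the highest and lowest mean ratio of each list, the 5 largest differences between the clones, and SP5. FOXA2, CXCR4, CER1, T, GSC, MIXL1, AXIN2, NODAL, NFASC, FN1, MLLT6, NPTX2, SHB, SOX2, DNMT3B, PODXL and NEFL were named after their values were seen. Of the called genes, 1 is counted but not reported here by name.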

Additional observations from a re-analysis of the deposited data

How the results depend on the processing

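The count of genes at least 2-fold higher in both clones (31) lay between 25 and 34 with pseudocounts of 0.01 and 0.2, a minimum value at 48 h, the median subtracted, and the change from 0 h set against that in WT Rep. 1. It was 54 after the 0 h ratio was subtracted, 48 in dZF1 alone and 54 in dZF2 alone, and 11 for the change against WT Rep. 1 in genes with at least 0.1 at 0 h, a limit that leaves 417 genes. Of the 31, 30 were shared with a pseudocount of 0.2, 19 after subtraction of the 0 h ratio and 10 for the change against WT Rep. 1. The count of genes at least 2-fold lower (16) was 4 with a pseudocount of 0.2, which shrinks ratios of low values, 29 in dZF1 alone and 41 in dZF2 alone; 2 of the 16 were shared after subtraction of the 0 h ratio and 2 for the change against WT Rep. 1. Counts of genes higher or lower in both clones stayed within 1.5 times. With a pseudocount of 0.2 the clones were at least 2-fold apart for 10 genes, and 12 genes were apart at 0 h. After subtraction of the 0 h ratio the mean log2 ratio of DUSP6 was -0.70, that of NKX1-2 was 0.15 and the median of the retinoid list was 0.10. Of the uncalled genes named by the rule, CRABP2 (0.10), MYCT1 (0.75), EFNA5 (0.06) and BTBD17 (-0.54) also changed sign there. T, named after its values were seen, changed sign too, with a mean log2 ratio of 1.29 at 48 h but 1.68 at 0 h. In dZF2 alone the median of the matrix list was -0.014. The other list medians kept their sign, and so did the other called genes, which were run with both pseudocounts and the 0 h ratio subtracted. The cause was not tested. No paired analysis was possible because no result comes from a test; the 0 h library of each series enters as the subtracted 0 h ratio.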
